A study of Homo sapiens with 6 samples.

Results

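Plasminogen activation and pericellular serine protease genes were examined in DCIS.COM cells with and without knockdown of BCL9, a coactivator of β-catenin. The 9 genes, out of 58676 in the deposited table, were chosen by symbol for their roles, and each symbol matched 1 row. They are the activators PLAU and PLAT, the receptor PLAUR, the membrane protease ST14, the serpins SERPINE2, SERPINB2 and SERPINB5, tissue factor (F3) and the Kunitz inhibitor TFPI2. DCIS.COM is an established human breast cell line of the basal type used as a model of ductal carcinoma in situ. The 3 NS control samples carried a non-silencing shRNA in the PLKO.1 lentiviral vector, and the 3 BCL9 KD samples carried a BCL9 shRNA in the same vector. Each sample was RNA from its own T75 flask, grown in DMEM/F12 with horse serum, so the p-values measure the spread between flasks, and nothing in the sources says that the flasks were transduced separately. With 1 BCL9 shRNA, effects of lower BCL9 and effects particular to that shRNA cannot be told apart. Below, samples are called flasks and their values are given in the order of replicate number.

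Plasminogen is an abundant inactive protein of plasma and tissue fluid that is cut to plasmin, a serine protease that degrades fibrin and several matrix proteins and activates some matrix metalloproteinases. Urokinase, bound to its receptor, and tissue-type plasminogen activator make that cut at the cell surface, and serpins block the activators by trapping them in an inactive complex. In breast epithelium and breast tumors the system is studied for its part in matrix breakdown, migration and invasion.

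Gene expression was measured as FPKM, which scales gene reads to sequencing depth and gene length, so that levels of different genes are compared per length. Depth was between 15222452 and 22712638 counted reads in NS control and between 15665714 and 26949026 in BCL9 KD samples. BCL9 itself fell from 5.94 ± 0.522 to 2.74 ± 0.139 FPKM (both SD, n = 3) upon knockdown (log2 fold change −0.99, limma adjusted p = 0.00773), and its adjusted p became 0.0636, 0.0600 and 0.070 without NS control flask 2, BCL9 KD flask 2 or BCL9 KD flask 3. Of 8 basal markers, KRT5, KRT14, KRT17 and TP63 averaged 406, 36.4, 566 and 16.1 FPKM over the 6 samples and KRT6A was the lowest at 1.81 FPKM. Of 8 luminal markers, KRT18, ERBB2, GATA3 and FOXA1 were also expressed, at 163, 17.6, 7.97 and 3.18 FPKM, whereas KRT19 was at 0.790 FPKM, ESR1 at 0.0660 FPKM, and PGR and TFF1 had no reads. The summed luminal markers were between 190 and 239 FPKM in NS control and between 171 and 183 FPKM in BCL9 KD flasks, without overlap. KRT18 made up most of that sum, at 177 and 150 FPKM on average. KRT18 and ERBB2 did not overlap between groups, while GATA3, FOXA1 and KRT19 did. The summed basal markers overlapped (1253 to 1433 and 1346 to 1401 FPKM). By limma, 0 of the 5 luminal and 0 of the 8 basal markers tested passed (1 and 3 had an unadjusted p under 0.05). Summed fibroblast markers were between 0.710 and 0.737 FPKM in NS control and between 0.768 and 0.905 FPKM in BCL9 KD flasks. Summed immune markers were between 0.537 and 0.730 and between 1.01 and 1.70 FPKM. CD14 made up most of the immune sum, at 0.422 and 1.04 FPKM on average, and did not pass (limma adjusted p = 0.0811). The means of ITGAM and CSF1R were lower with BCL9 KD. The other immune markers averaged at most 0.0212 FPKM over the 6 samples. The part of these marker differences in the results was not tested. Differences were tested with limma on log2(FPKM + 0.5) over the 13745 genes with a mean of at least 0.5 FPKM, and a gene was called at a Benjamini-Hochberg adjusted p-value under 0.05 over all of them. Of these genes, 5.87% were called, 2.96% as higher and 2.91% as lower after knockdown, and 27.5% had an unadjusted p under 0.05. The share called was 10.2% by voom on recovered reads, 12.7% after a correction for transcript GC content, 0.0% with a replicate block and 2.62% with both of the last. A two-sided exact permutation test of 3 samples against 3 cannot give a p below 0.1.

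In BCL9 KD cells, PLAT was the member that passed the test, at about double its level in NS control cells. The other 6 members tested did not pass, and 5 of them had a log2 fold change above 0. SERPINB2 was close to 0 and TFPI2 had no reads in any sample, so neither was tested. The 7 members tested had a median log2 fold change of 0.20, where that of all tested genes was 0.04, and 6 of the 7 lay above 0, as did 55.4% of all tested genes. Groups did not overlap for 4 of the 7, each time with the knockdown flasks on top, while 34.2% of all tested genes did not overlap, 17.8% higher and 16.4% lower. These are bulk RNA measurements, in which a change in the number of expressing cells and a change in RNA per cell cannot be told apart.

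**Figure D1:**
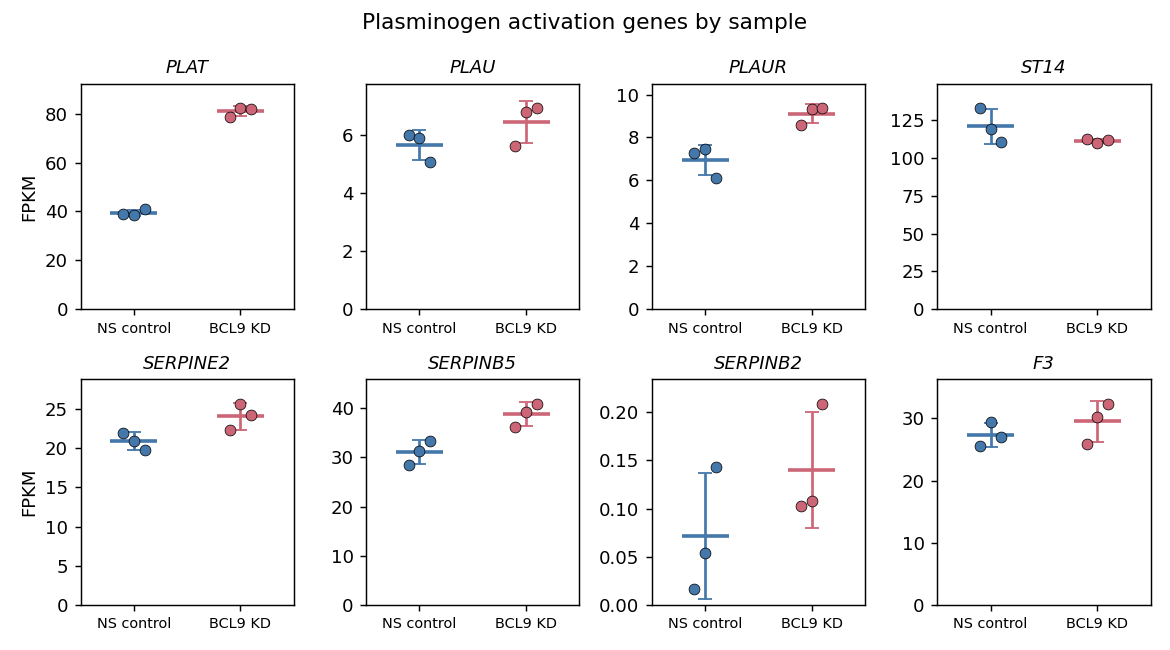
Expression of 8 members in FPKM (linear axes from 0) in 3 NS control (blue) and 3 BCL9 KD (red) samples; points are samples, horizontal bars are means and error bars are SD, and TFPI2, which had no reads, is not drawn. PLAT runs from 38.5 to 40.8 FPKM in NS control and from 78.6 to 82.4 FPKM in BCL9 KD samples, while the groups overlap for PLAU, ST14, SERPINB2 and F3.

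PLAT (ENSG00000104368), on chromosome 8 of GRCh38 from 42175233 to 42207724, encodes tissue-type plasminogen activator, a secreted protease best known for dissolving fibrin clots. Its expression was 38.9, 38.5 and 40.8 FPKM with NS control, against 78.6, 82.4 and 81.9 FPKM with BCL9 KD. The BCL9 KD values were all far above the NS control values, and both groups were tight. The means were 39.4 ± 1.25 FPKM (SD, n = 3) and 81.0 ± 2.06 FPKM (SD, n = 3), a 2.06-fold difference. The log2 fold change was 1.03 (standard error 0.0618, 95% confidence interval 0.88 to 1.18, limma adjusted p = 0.00269). The exact permutation p was 0.1, the smallest that this design allows. These values rest on 5842, 5153 and 4112 reads in NS control and 9195, 14697 and 8489 reads in BCL9 KD samples. Leaving out any 1 flask, the estimate for PLAT stayed between 1.01 and 1.06 on the log2 scale and its limma adjusted p between 0.00588 and 0.0456. Among the genes called higher, PLAT had the 54th largest log2 fold change out of 407.

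PLAT is also a known product of endothelial cells, whose markers were therefore read in the same samples. Summed over 6 endothelial markers, expression was between 1.91 and 2.67 FPKM in NS control and between 3.24 and 4.14 FPKM in BCL9 KD samples. PECAM1 made up most of that sum and was the endothelial marker that passed the test, with 2.10 ± 0.328 FPKM with NS control against 3.45 ± 0.412 FPKM with BCL9 KD (both SD, n = 3) (log2 fold change 0.61, limma adjusted p = 0.0477). PECAM1 passed in 6 of 17 alternatives, and of the 6 fits that leave out a flask it passed in the one without NS control flask 3, with limma adjusted p from 0.0534 to 0.186 in the others. CDH5, KDR, TEK, VWF and CLDN5 were close to 0, with means over the 6 samples between 0.0198 FPKM for VWF and 0.0839 FPKM for KDR. The mean of TEK was 0.0719 FPKM with NS control and 0.00907 FPKM with BCL9 KD, without overlap, on at most 9 reads per sample. That of CLDN5 was 0.103 against 0.0442 FPKM, with overlap. CDH5, KDR and VWF had higher means with BCL9 KD, also with overlap. The part of endothelial cells in the PLAT result was not tested beyond these levels.

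The pattern of PLAT across the 6 samples, a step between the groups with little spread within them, was shared by many genes. The 3 protein-coding genes most like it by the Pearson correlation of log2(FPKM + 0.5) over these 6 samples were ALDH7A1, LMO4 and TCN1, with correlations of 1.00, 0.997 and 0.997. A correlation of at least 0.95 was found for 279 protein-coding genes. The 6 points fall into the 2 groups, so this correlation mainly reads the difference between them. TCN1, which encodes the vitamin B12 binding protein haptocorrin, had the larger change of the 3, from 6.47 ± 0.736 to 23.3 ± 0.226 FPKM (both SD, n = 3). ALDH7A1 did not pass the test (log2 fold change 0.23, limma adjusted p = 0.0571).

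PLAU (ENSG00000122861), on chromosome 10 from 73909177 to 73917497, encodes urokinase, the activator that binds the receptor PLAUR. Its expression was 5.98, 5.88 and 5.05 FPKM with NS control, against 5.60, 6.79 and 6.92 FPKM with BCL9 KD. The groups overlapped, because BCL9 KD flask 1 lay below NS control flasks 1 and 2. The log2 fold change was 0.17 (standard error 0.110, 95% confidence interval −0.09 to 0.43, limma adjusted p = 0.339). PLAU had between 227 and 540 reads per sample, and the gene C10orf55 on its opposite strand had at most 15. The counting is not stated to use strand, so reads from the overlap of these 2 genes may not be told apart.

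PLAUR (ENSG00000011422), on chromosome 19 from 43646095 to 43670547, encodes the urokinase receptor, a protein anchored in the membrane by a lipid. Its expression was 7.26, 7.46 and 6.13 FPKM with NS control, against 8.58, 9.34 and 9.38 FPKM with BCL9 KD. All BCL9 KD values lay above all NS control values, but the log2 fold change of 0.37 (standard error 0.0946, 95% confidence interval 0.15 to 0.59) did not pass after adjustment (limma adjusted p = 0.0644). PLAUR passed under 2 alternatives, with limma adjusted p = 0.0487 by voom on the recovered reads and 0.0183 after a correction for transcript GC content.

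Within each sample, PLAT was the more abundant of the 2 activators per length. The ratio of PLAT to PLAU was 7.04 ± 0.898 (SD, n = 3) in NS control and 12.7 ± 1.20 (SD, n = 3) in BCL9 KD samples, running from 6.49 to 8.07 and from 11.8 to 14.0.

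ST14 (ENSG00000149418), on chromosome 11 from 130159562 to 130210376, encodes matriptase, a membrane-anchored serine protease of epithelia that can activate pro-urokinase. Its expression was 133, 119 and 111 FPKM with NS control, against 113, 110 and 112 FPKM with BCL9 KD. The groups overlapped, with the NS control samples spread widely and the BCL9 KD samples within 3 FPKM of each other. ST14 was the tested member with a log2 fold change below 0, at −0.11 (standard error 0.0826, 95% confidence interval −0.31 to 0.08, limma adjusted p = 0.402). SPINT1 encodes the inhibitor that pairs with matriptase, and was at 57.7 ± 5.22 FPKM with NS control against 70.4 ± 3.39 FPKM with BCL9 KD (both SD, n = 3) (log2 fold change 0.29, limma adjusted p = 0.0910). The ratio of ST14 to SPINT1 ran from 2.06 to 2.12 in NS control and from 1.51 to 1.69 in BCL9 KD samples, without overlap. Ratios were chosen with the levels known and were not tested.

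Of the serpins, SERPINB5 and SERPINE2 had non-overlapping groups and neither passed the test. SERPINB5 (ENSG00000206075), on chromosome 18 from 63476761 to 63505085, encodes maspin, which is made by normal mammary epithelium and does not act as a classical protease inhibitor. Its expression was 28.5, 31.3 and 33.4 FPKM with NS control, against 36.2, 39.2 and 40.9 FPKM with BCL9 KD, all of the latter above all of the former. The log2 fold change was 0.32 (standard error 0.0852, 95% confidence interval 0.11 to 0.52, limma adjusted p = 0.0724). SERPINB5 passed after the GC correction (limma adjusted p = 0.0488) as well as in the fit without NS control flask 3 (limma adjusted p = 0.0468).

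SERPINE2 (ENSG00000135919), on chromosome 2 from 223975112 to 224039319, encodes protease nexin 1, which inhibits thrombin and both plasminogen activators. Its expression was 22.0, 20.9 and 19.7 FPKM with NS control, against 22.3, 25.7 and 24.3 FPKM with BCL9 KD. The groups came within 1 FPKM of each other, between NS control flask 1 and BCL9 KD flask 1. The log2 fold change was 0.20 (standard error 0.0807, 95% confidence interval 0.01 to 0.39, limma adjusted p = 0.169). The ratio of PLAT to SERPINE2 was 1.89 ± 0.158 (SD, n = 3) in NS control and 3.37 ± 0.163 (SD, n = 3) in BCL9 KD samples.

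SERPINB2 (ENSG00000197632), on chromosome 18 from 63871692 to 63903890, encodes plasminogen activator inhibitor 2. Only 1, 3 and 6 reads were counted with NS control, against 5, 8 and 9 with BCL9 KD, which is at most 0.209 FPKM. The groups overlapped in FPKM. Over the summed reads of each group, the ratio of BCL9 KD to NS control per read counted was 2.12, with an exact 95% interval of 0.96 to 5.02 that covers counting error only. The interval includes 1, so no difference was detected at this depth.

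F3 (ENSG00000117525), on chromosome 1 from 94529225 to 94541800, encodes tissue factor, the membrane protein that starts blood coagulation by binding factor VII. Its expression was 25.6, 29.5 and 26.9 FPKM with NS control, against 25.9, 30.3 and 32.4 FPKM with BCL9 KD. The groups overlapped, and the log2 fold change was 0.11 (standard error 0.102, 95% confidence interval −0.13 to 0.35, limma adjusted p = 0.516). TFPI2 (ENSG00000105825), on chromosome 7 from 93885397 to 93890991, encodes a secreted inhibitor of plasmin and trypsin. It had 0 reads in all 6 samples, which allows up to 3 reads, or between 0.0418 and 0.0740 FPKM depending on the depth of the sample.

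The members kept one order of mean level in both groups. From high to low it was ST14, PLAT, SERPINB5, F3, SERPINE2, PLAUR, PLAU, SERPINB2 and TFPI2. In NS control, SERPINB5 (28.5 to 33.4 FPKM) and F3 (25.6 to 29.5 FPKM) overlapped. SERPINB2 (0.0160 to 0.143 FPKM) and TFPI2 also could not be ordered there, since 0 reads of TFPI2 allow up to 0.0740 FPKM. In BCL9 KD cells no neighbours overlapped, and PLAT lay at 81.0 against 112 FPKM for ST14, where NS control had 39.4 against 121 FPKM.

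**Figure D2:**
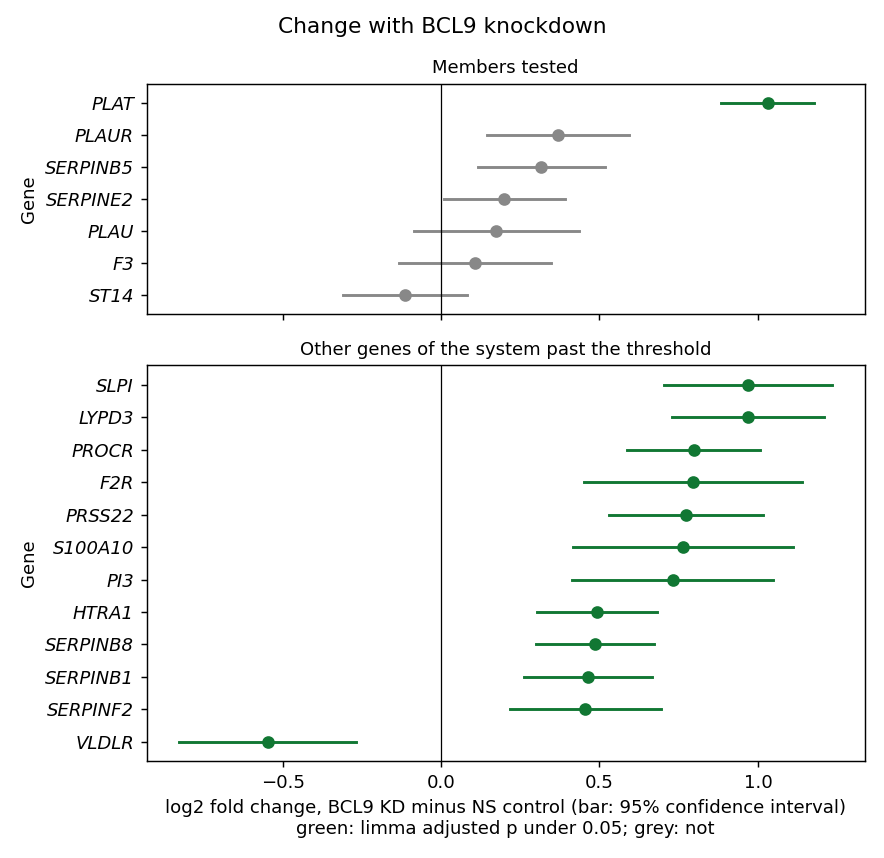
Log2 fold change, BCL9 KD minus NS control, with 95% confidence intervals for the 7 members tested (top) and for the 12 other genes of the system past the threshold (bottom); green marks a limma adjusted p under 0.05. PLAT, at 1.03, stands apart from the other members, which lie between −0.11 and 0.37, and VLDLR is the 1 gene of the bottom group with a fold change under 0.

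Members found by symbol in the set of RefSeq promoters used here were searched for short motifs of factor families that act on inducible genes. Entries of that set were matched for 7 of the 9 members, with 9 promoters in all. PLAT, the member called, and ST14 were not matched by symbol there and were not searched. The 250 bases before each start were read on both strands. The AP-1 element TGANTCA, bound by FOS and JUN family factors, was found for 5 of the 7 members (F3, PLAUR, SERPINB2, SERPINB5 and TFPI2), while 6.57% of all 35116 promoters hold it. A member counts if any of its promoters matches, whereas the percentages are of single promoters, so they are not like for like. The motifs were chosen with earlier results of these data known. Matches of the STAT motif TTCNNNGAA (6.57% of all promoters), the TCF/LEF motif CTTTGAA (3.8%), an NF-kappaB motif (1.73%) and the CRE motif TGACGTCA (1.65%), which does not contain TGANTCA, were found for 0 of the 7. TATAAA (10.7%) was found for 2 and CCGCCC (42.6%) for 5 of them. The members with the AP-1 letters include SERPINB2 and TFPI2, which had few or no reads, as well as F3, PLAUR and SERPINB5.

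The 5 sequences are shown to place the AP-1 letters, in capitals, against the start of each gene. They are printed 5′ to 3′ on the strand of the gene, from RefSeq on GRCh38.p14. The RefSeq starts used here lie inside the gene spans of the deposited table, which begin further upstream for these 5 genes. For PLAUR, SERPINB5 and F3 the whole 250 bases are given, ending at the base before the start, and for SERPINB2 and TFPI2 the 67 bases around the element. PLAUR lies at chr19:43670170-43670419 on the minus strand, with 179 bases between the element and the start. SERPINB5 lies at chr18:63476708-63476957 on the plus strand, with 139 bases between them. F3 lies at chr1:94541760-94542009 on the minus strand and holds 2 elements, with 216 and 203 bases between them and the start. SERPINB2 lies at chr18:63887573-63887639 on the plus strand (95 bases) and TFPI2 at chr7:93890804-93890870 on the minus strand (80 bases).
PLAUR: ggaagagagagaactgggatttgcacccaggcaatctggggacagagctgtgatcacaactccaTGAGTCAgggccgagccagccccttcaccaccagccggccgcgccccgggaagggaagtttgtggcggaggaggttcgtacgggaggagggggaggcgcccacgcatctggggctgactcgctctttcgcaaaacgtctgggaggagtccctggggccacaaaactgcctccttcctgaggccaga
SERPINB5: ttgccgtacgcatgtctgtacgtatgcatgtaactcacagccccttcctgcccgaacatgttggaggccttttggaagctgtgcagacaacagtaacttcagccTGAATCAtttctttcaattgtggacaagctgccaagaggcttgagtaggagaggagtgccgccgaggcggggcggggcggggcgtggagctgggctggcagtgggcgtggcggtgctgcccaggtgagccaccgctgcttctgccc
F3: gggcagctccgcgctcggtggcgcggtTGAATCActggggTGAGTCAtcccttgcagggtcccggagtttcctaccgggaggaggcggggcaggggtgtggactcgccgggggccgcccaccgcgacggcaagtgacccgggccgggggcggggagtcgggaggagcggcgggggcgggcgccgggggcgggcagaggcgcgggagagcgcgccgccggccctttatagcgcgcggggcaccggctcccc
SERPINB2: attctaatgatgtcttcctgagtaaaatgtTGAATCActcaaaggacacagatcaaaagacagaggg
TFPI2: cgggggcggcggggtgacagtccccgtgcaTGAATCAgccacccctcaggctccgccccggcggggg

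SERPINB2 and SERPINB5 belong to a cluster of clade B serpin genes on chromosome 18, of which 10 were read together. Only SERPINB5 and SERPINB8 were expressed enough to be tested, and 2 of the 10 had no reads. SERPINB8, a furin inhibitor, rose from 3.16 ± 0.0234 to 4.63 ± 0.225 FPKM (both SD, n = 3) in BCL9 KD cells (log2 fold change 0.49, limma adjusted p = 0.0273). Without NS control flask 2, BCL9 KD flask 2 or BCL9 KD flask 3, SERPINB8 was not called.

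The wider system was read through 92 other genes grouped by role, of which 48 were tested. In BCL9 KD cells 11 rose and 1 fell, or 25.0% of those tested, where 5.87% of all tested genes were called. The 92 genes were listed with earlier results of these data known, so these shares are no test of the system. The median log2 fold change of the 48 was 0.19, against 0.04 for all tested genes. With quantile normalization the split was 13 higher and 3 lower. The count rested on few samples: it was 0 without NS control flask 2, without BCL9 KD flask 2 or without BCL9 KD flask 3, where the calls over all genes numbered 12, 13 and 5, and 21, 19 and 20 of the 48 had an unadjusted p under 0.05, beside 2620, 2409 and 2330 of all 13745 tested genes. PLAT was called in each of the 6 fits that leave out 1 flask.

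**Figure D3:**
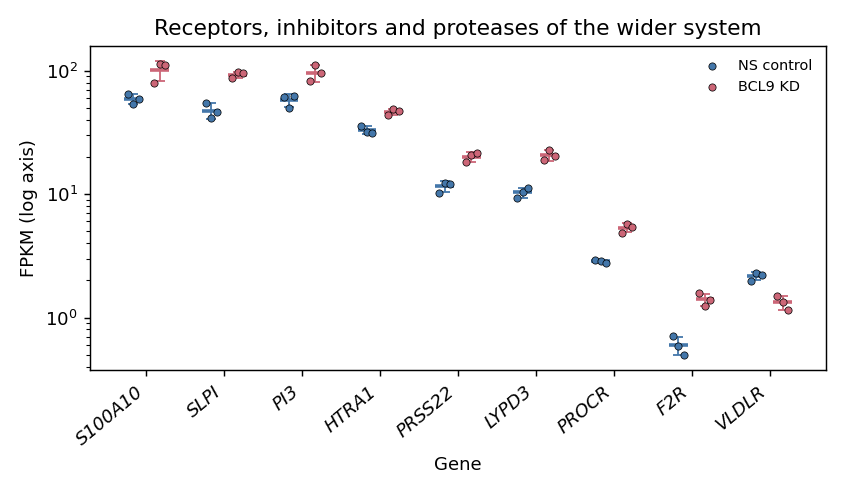
Expression in FPKM (log axis) of 9 genes of the wider system in 3 NS control (blue) and 3 BCL9 KD (red) samples; points are samples, horizontal bars are means and error bars are SD. SLPI runs from 41.4 to 54.8 FPKM in NS control and from 86.6 to 96.6 FPKM in BCL9 KD samples, and VLDLR is the gene drawn whose BCL9 KD values lie below those of NS control.

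Among plasminogen and its cell surface receptors, 1 of 8 genes tested rose and 0 fell, beside 2.96% and 2.91% of all tested genes, and PLG itself had no reads. S100A10, which with annexin A2 binds plasminogen and tissue-type plasminogen activator at the membrane, rose from 59.0 ± 5.16 to 102 ± 18.8 FPKM (both SD, n = 3) (log2 fold change 0.76, limma adjusted p = 0.0374). Its partner ANXA2, chosen after its values were seen, was at 268 ± 14.1 FPKM with NS control against 342 ± 35.8 FPKM with BCL9 KD (both SD, n = 3) without overlap, and did not pass (log2 fold change 0.35, limma adjusted p = 0.0782). ENO1, a glycolytic enzyme that also binds plasminogen, was the most abundant gene of this group, at 1593 FPKM over the 6 samples. ENO1 did not pass (log2 fold change −0.28, limma adjusted p = 0.142), and its BCL9 KD values all lay below its NS control values. Of the 8 tested, 3 had non-overlapping groups with BCL9 KD higher and 2 with it lower, beside 17.8% and 16.4% of all tested genes.

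Among serpins and other protease inhibitors, 5 of 15 tested rose and 0 fell (2.96% and 2.91% of all tested genes), and all 15 had a log2 fold change above 0 (55.4% of all tested genes). SLPI and PI3 (elafin), small secreted inhibitors of neutrophil elastase, were the more abundant of the 5. SLPI rose from 47.3 ± 6.84 to 92.7 ± 5.35 FPKM (both SD, n = 3) (log2 fold change 0.97, limma adjusted p = 0.0117). PI3 rose from 57.6 ± 6.55 to 96.3 ± 14.8 FPKM (both SD, n = 3) (log2 fold change 0.73, limma adjusted p = 0.0340). The others were SERPINB8, SERPINB1, an inhibitor of neutrophil proteases (log2 fold change 0.46, limma adjusted p = 0.0344), and SERPINF2, the main inhibitor of plasmin in blood (log2 fold change 0.46, limma adjusted p = 0.0486). SERPINF2 passed in 6 of 17 alternatives and in 1 of the 6 fits that leave out a flask, and was also lost without NS control flask 3 (limma adjusted p = 0.0555) or BCL9 KD flask 1 (0.0664). SERPINB1 was also lost without BCL9 KD flask 1 (limma adjusted p = 0.0573).

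**Figure D4:**
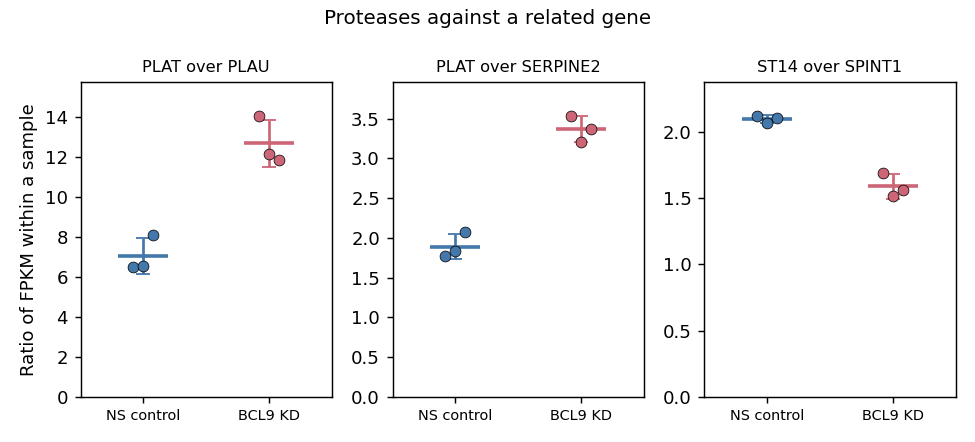
Ratio of the FPKM of 2 genes within each sample (axes from 0) for 3 NS control (blue) and 3 BCL9 KD (red) samples; points are samples, horizontal bars are means and error bars are SD. The ratios of PLAT to PLAU and to SERPINE2 lie higher in BCL9 KD samples (12.7 and 3.37 on average, against 7.04 and 1.89), and that of ST14 to SPINT1 lies lower (1.59 against 2.10).

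Of the other membrane and secreted serine proteases, 2 of 10 tested rose and 0 fell, beside the same 2.96% and 2.91% of all tested genes. PRSS22, a tryptase-like protease of epithelia, rose from 11.5 ± 1.15 to 20.1 ± 1.75 FPKM (both SD, n = 3) (log2 fold change 0.77, limma adjusted p = 0.0171). HTRA1, a secreted protease that degrades matrix proteins, rose from 32.9 ± 2.39 to 46.4 ± 2.60 FPKM (both SD, n = 3) (log2 fold change 0.49, limma adjusted p = 0.0275). KLK5, a kallikrein of stratified epithelium and the most abundant of the 10 at 279 FPKM over the 6 samples, had an estimate of 0.10 on the log2 scale (limma adjusted p = 0.524), which was −0.01 with quantile normalization.

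Of 16 coagulation genes 4 were tested, of which 1 rose and 0 fell (2.96% and 2.91% of all tested genes). PROCR, the endothelial protein C receptor, rose from 2.85 ± 0.0595 to 5.34 ± 0.449 FPKM (both SD, n = 3) (log2 fold change 0.80, limma adjusted p = 0.0109), and its reads numbered between 72 and 261 per sample.

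In the list of protease-activated and clearance receptors, 2 of 11 tested rose and 1 fell, beside 2.96% and 2.91% of all tested genes. That list also held genes of neither kind, such as LYPD3, which rose, and CD44. F2R, the thrombin receptor PAR1, rose from 0.596 ± 0.102 to 1.40 ± 0.162 FPKM (both SD, n = 3) (log2 fold change 0.80, limma adjusted p = 0.0340). LYPD3, a relative of PLAUR with the same type of lipid anchor, rose from 10.3 ± 0.945 to 20.7 ± 2.04 FPKM (both SD, n = 3) (log2 fold change 0.97, limma adjusted p = 0.00977). VLDLR, an endocytic receptor that clears protease and serpin complexes, was the gene that fell, from 2.16 ± 0.165 to 1.32 ± 0.165 FPKM (both SD, n = 3) (log2 fold change −0.55, limma adjusted p = 0.0466). VLDLR passed in 8 of 17 alternatives and in 1 of the 6 fits that leave out a flask, and was also lost without NS control flask 3 (limma adjusted p = 0.0565) or BCL9 KD flask 1 (0.0559). F2R was also lost without BCL9 KD flask 1 (limma adjusted p = 0.0663). CD44, a hyaluronan receptor and the most abundant of this group, had an estimate of −0.09 on the log2 scale (limma adjusted p = 0.418).

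**Figure D5:**
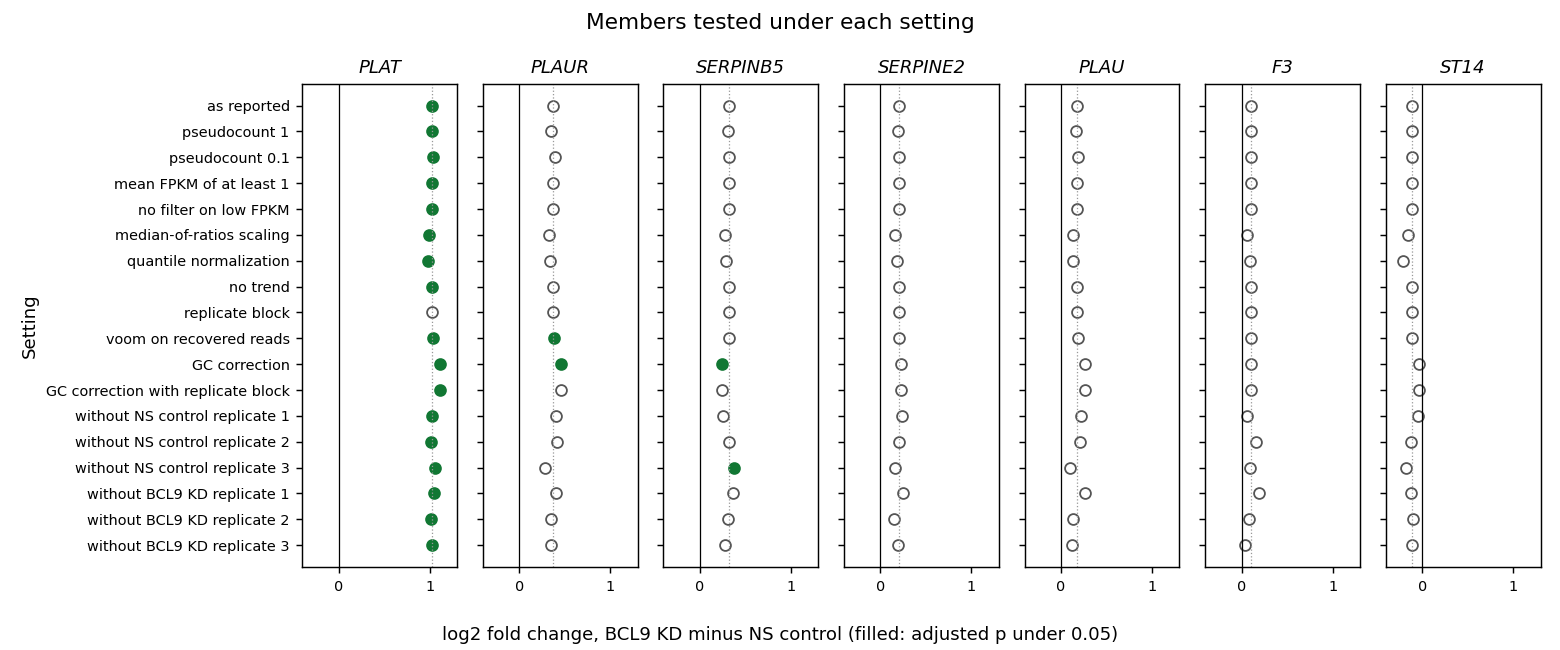
Log2 fold change, BCL9 KD minus NS control, of the 7 members tested under the reported setting and 17 alternatives; filled points have an adjusted p under 0.05 and the dotted line marks the reported value. PLAT is filled in all rows but the replicate block, in which 0 genes of the whole table passed, and PLAUR and SERPINB5 are filled in 2 rows each.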

How the data were processed

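RNA of 3 NS control and 3 BCL9 KD flasks of DCIS.COM cells was sequenced. Per the methods, STAR aligned paired reads, HTSeq 0.6.1 gave gene counts, and from these the authors computed the deposited FPKM, and the submitters' processing notes name CASAVA and the build hg38. A further deposited column, in other units, is the length of each gene in bases. FPKM times length gave whole multiples of 1 step in each sample for 100% of values above 0 (tolerance 0.1), from which reads and depth were recovered. The libraries carry no stated molecular identifiers, so intervals and limits from reads cover counting error only.

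Groups were taken from the sample labels. The main test was limma 3.58.1 in R 4.3.3 (trend = TRUE) on log2(FPKM + 0.5), over genes averaging at least 0.5 FPKM, and p-values were adjusted by Benjamini-Hochberg to a threshold of 0.05. The added 0.5 makes the fold changes of low genes smaller than their FPKM ratio. The authors tested with DESeq2 or edgeR, which take counts and were not run here. The replicate number their methods give for that test is lower than the 3 labelled samples per group, all of which are in the table and were used here. Tables and plots were made in Python 3.11 (pandas 2.3.3, numpy 2.4.6; plots in matplotlib 3.10.9, exact tests in scipy 1.17.1), and the fits were tested on simulated data. Replicates of a group correlated between 0.964 and 0.987 in log2 values. The members, gene lists, markers and motifs were chosen with earlier results of these data known. Named were the 9 members, BCL9, listed genes past the threshold, the most abundant tested gene of each list of the wider system, and the 3 genes most like PLAT. SPINT1, ANXA2, PECAM1 and the other markers named are not covered by it, and their values were known when they were picked. For SERPINA3, with 2 rows, the row with the higher mean was used. Alternatives were a pseudocount of 1 or 0.1, a filter at 1 FPKM or none, median-of-ratios and quantile scaling, no trend, voom on recovered reads, a replicate block, leaving out each sample and, chosen after seeing the data, a GC correction (loess, span 0.3, transcript GC known for 98.8% of tested genes from GRCh37 transcripts) alone and with the block.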

Additional observations from a re-analysis of the deposited data

How the results depend on the processing

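Over 17 alternatives, the log2 fold change of all 7 members tested kept its sign, and that of PLAT ran from 0.99 to 1.11. Small estimates of members moved by over 1.5 times with 1 flask left out. PLAU ran from 0.10 (without NS control flask 3) to 0.26 (without BCL9 KD flask 1). F3 ran from 0.04 (without BCL9 KD flask 3) to 0.20 (without BCL9 KD flask 1). ST14 ran from −0.18 (without NS control flask 3) to −0.04 (without NS control flask 1), and reached −0.22 under quantile scaling and −0.03 once corrected for GC. Outside the members, CD44 ran from −0.13 to −0.06 and KLK5 from 0.05 to 0.19 with 1 flask left out. PLAT passed in 16 of the 17. The exception was the replicate block, with the replicate number as a covariate: its log2 fold change was then 1.03 (limma adjusted p = 0.0656), and the block left 0 members, 0 genes of the wider system, 0 of the serpin cluster and 0 of all genes, with 3235 genes at an unadjusted p under 0.05 against 3775 without it, and 1403 genes called by voom. The numbers are not shown to pair the samples, since the deviations of same-numbered samples correlated at −0.147, −0.0884 and −0.00287. With the GC correction and the block together, 360 genes, 1 member (PLAT, limma adjusted p = 0.0261), 8 genes of the wider system (all higher) and 0 of the serpin cluster passed. The members called numbered 2 by voom and 3 with the GC correction. Genes called numbered 142 without a filter on low FPKM, 536 with median-of-ratios scaling, 332 without the trend, 1403 by voom and 1745 with the GC correction, against 807 as reported. For the wider system the counts were 3, 7 and 6 under the first 3 of these and 20 with the GC correction, against 12, and for the serpin cluster 0 without the filter and 2 with the GC correction, against 1. With 1 sample left out in turn, the calls ran from 5 to 1712 genes, from 1 to 2 members, from 0 to 14 genes of the wider system and from 0 to 2 of the cluster. Of the 29 genes refitted under the alternatives (16 for F2R, which the filter at 1 FPKM removes), KLK5 changed sign, to −0.0136 with quantile normalization. The cause of these differences was not tested. Depth limits SERPINB2 and TFPI2, for which differences of a few reads could not be resolved.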
